A study of Mus musculus with 6 samples.

Results

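The genes described here are 38 genes that cells transcribe when they copy their DNA and divide, measured in mouse skin as a set of 16 replication genes and 22 mitotic genes. They were found by their symbols in the deposited table, which holds 57010 genes. All 38 had 1 row each, and all 38 reached the mean of 1 FPKM (reads per kilobase of a gene at equal library depth) that a gene needed to be tested, as did 14588 genes in total. The RNA came from skin of 6 wild-type mice at the close of a diabetic ulcer experiment, 3 given a gel with CST (cortistatin, by the series title, a peptide related to somatostatin) and 3 given a gel with Yoda1, a synthetic opener of the Piezo1 channel, with 1 library per mouse. The labels leave out strain, age, doses and the way diabetes was brought about, and skin without either agent was not analysed here. Every comparison therefore sets one agent against the other.

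Before a cell can copy its DNA, the Mcm2 to Mcm7 helicase is loaded on origins with the help of Cdc6 and Cdt1, and cyclin E with its kinase helps to start S phase. Rrm1, Rrm2, Tyms and Tk1 supply the nucleotides and Pcna clamps the polymerase to the template. Later, Cdk1 with cyclins A and B drives the cell into mitosis, spindle motors and kinetochore proteins move the chromosomes, and the anaphase-promoting complex with Cdc20 and Ube2c ends it. In skin these genes are known from the basal layer of the epidermis, the matrix of the growing hair follicle and the proliferating edge of wounds.

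These sets are known to be switched on through different promoter letters: S phase genes through E2F factors, and genes of G2 and mitosis through the CHR element (cell cycle genes homology region) together with CCAAT boxes. These letters were searched in the RefSeq windows on GRCm38, which run from 250 bases before to 50 bases after an annotated start. A window was held for 31 of the 38 members, 13 replication and 18 mitotic. CHR was searched as TTTGAA, the CCAAT box as CCAAT, and E2F as any of TTTGGCGC or TTTCCCGC or TTTCGCGC or TTTGCCGC, each on both strands and with overlaps allowed. Among the mitotic members 13 of 18 (72.2%) had the CHR letters, against 1 of 13 replication members (7.69%) and 20.2% of the 27025 genes in the RefSeq table. The E2F letters were in 6 of 13 replication members (46.2%), in 1 of 18 mitotic members (5.56%) and in 2.60% of all genes. CCAAT was common in both, at 88.9% of mitotic and 61.5% of replication members against 41.1% of all genes. The genes of the same pathways outside the 38 had similar letters, with CHR in 64.6% of the 65 other mitotic genes that have a window and E2F letters in 34.4% of the 32 other replication fork genes. A match of letters is not a measured site.

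The first of 3 promoters printed whole belongs to Mcm7, the replication member with the highest level among those with E2F letters, on the minus strand at chr5:138171834-138172133. Capitals mark the E2F and CCAAT letters on either strand, and near the end 1 E2F match and 1 CCAAT match run into each other. The next belongs to Top2a, the mitotic member with the highest level, on the minus strand at chr11:99024140-99024439, with CHR and CCAAT letters in capitals.
Mcm7: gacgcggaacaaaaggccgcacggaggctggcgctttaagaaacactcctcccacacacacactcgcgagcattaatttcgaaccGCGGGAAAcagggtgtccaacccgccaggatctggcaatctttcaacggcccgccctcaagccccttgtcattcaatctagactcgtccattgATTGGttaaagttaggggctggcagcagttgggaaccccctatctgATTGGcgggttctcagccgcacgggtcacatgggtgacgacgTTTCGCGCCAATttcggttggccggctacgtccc
Top2a: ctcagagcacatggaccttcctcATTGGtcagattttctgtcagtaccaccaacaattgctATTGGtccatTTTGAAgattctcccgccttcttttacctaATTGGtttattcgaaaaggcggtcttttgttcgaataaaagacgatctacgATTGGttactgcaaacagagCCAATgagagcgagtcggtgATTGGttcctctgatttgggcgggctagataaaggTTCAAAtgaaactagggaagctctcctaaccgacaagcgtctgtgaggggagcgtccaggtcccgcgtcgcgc

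In all 13 mitotic members with CHR letters, a CCAAT match lay upstream of the CHR match nearest the start site. Its first letter stood 9 to 153 bases before the first letter of the CHR match, with a median of 35, and in 7 of the 13 the distance lay between 25 and 40 bases. The stretch from one to the other is printed for the 6 of them with the highest mean FPKM, in the direction of the gene, with the letters at its 2 ends in capitals (a further CHR match between them in Mki67 is left in lower case; ATTGG and TTCAAA are the same letters read on the other strand). They lie at chr11:99024199-99024255 (Top2a), chr2:164769864-164769913 (Ube2c), chr10:69352914-69352968 (Cdk1), chr4:118437348-118437404 (Cdc20), chr7:135716464-135716528 (Mki67) and chr7:80294406-80294459 (Prc1), of which Ube2c and Prc1 are on the plus strand.
Top2a: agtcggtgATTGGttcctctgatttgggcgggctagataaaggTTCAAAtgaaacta
Ube2c: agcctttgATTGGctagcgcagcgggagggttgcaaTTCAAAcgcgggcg
Cdk1: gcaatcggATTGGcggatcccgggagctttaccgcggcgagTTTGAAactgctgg
Cdc20: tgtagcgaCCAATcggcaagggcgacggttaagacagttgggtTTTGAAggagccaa
Mki67: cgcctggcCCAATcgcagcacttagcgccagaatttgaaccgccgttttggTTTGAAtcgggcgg
Prc1: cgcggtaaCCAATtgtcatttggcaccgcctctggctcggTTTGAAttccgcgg
The distances in these were 35 bases in Top2a, 28 in Ube2c, 33 in Cdk1, 35 in Cdc20, 43 in Mki67 and 32 in Prc1. Distances were not worked out for genes outside the members. Where a window holds several CCAAT matches, as in Top2a and Ube2c, the nearest upstream one was taken, which favours a short distance. Tk1, at chr11:117825965-117826264 on the minus strand, is the member with the highest level whose window held none of the letters searched, as were Tyms, Ccne1, Birc5 and Nusap1; for 7 members (Mcm4, Gins2, Ccne2, Ccna2, Aurkb, Kif20a and Tpx2) no window was used.
Tk1: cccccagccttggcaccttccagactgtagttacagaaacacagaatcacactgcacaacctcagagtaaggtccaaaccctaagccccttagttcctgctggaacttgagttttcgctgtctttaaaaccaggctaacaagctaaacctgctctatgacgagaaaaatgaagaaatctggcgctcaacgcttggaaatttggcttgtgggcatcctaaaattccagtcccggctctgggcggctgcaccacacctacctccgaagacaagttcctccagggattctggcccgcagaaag

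**Figure D1:**
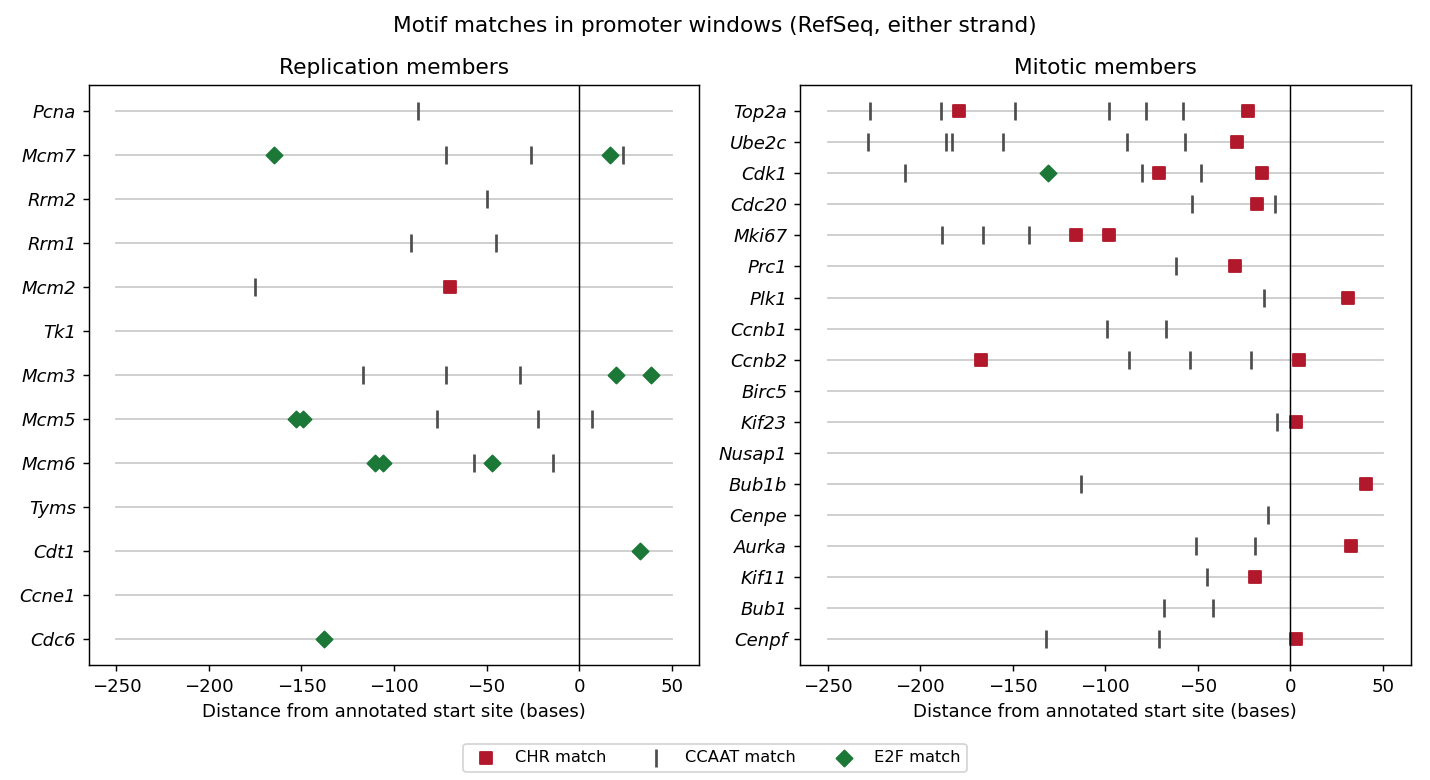
Position of each letter match in the promoter windows of 13 replication and 18 mitotic members, with distance from the annotated start site in bases on the horizontal axis and genes ordered by mean FPKM; where a gene has several windows, 1 is drawn. Red squares (CHR) are in 13 of 18 mitotic rows and 1 of 13 replication rows, and green diamonds (E2F) are in 6 of 13 replication rows and 1 of 18 mitotic rows.

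Library depth, worked out from the FPKM values, was 23791352 to 29620526 reads, and each member value rested on 133 to 6757 reads. Between 13898 and 14665 genes reached 1 FPKM per library. CST mouse 1 (6.73%) and Yoda1 mouse 3 (7.61%) had a higher mitochondrial share of summed FPKM than the other 4 libraries (3.25% to 3.81%), so these 2 stand apart and the main counts are also given without them. Keratinocyte markers were present in every library, with a summed level of 8204 to 18080 FPKM over 7 basal markers. So were markers of fibroblasts (3616 to 11410 FPKM over 6 genes) and, in unequal amounts, skeletal muscle (7418 to 14110 FPKM over 12 genes with CST, 118 to 5509 with Yoda1), so the libraries held more than the keratinocytes that one label names. In such mixed tissue, fewer dividing cells and less of these RNAs per cell cannot be told apart.

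None of the cell cycle members passed the test between CST and Yoda1 skin. Of the 38 members 0 passed an adjusted p of 0.05 in limma, where 0% of the 14588 genes did (smallest adjusted p = 0.521). At an unadjusted p under 0.05 there were 0 of 38 members and 4% of all genes (584), and the smallest unadjusted p among the members was 0.132, for Gins2. The mitotic members had a median log2 change, taken as CST less Yoda1 in log2(FPKM + 1), of 0.00, with 12 positive and 10 negative (10 and 12 with median-of-ratios scaling). The replication members had a median of -0.23, with 15 of 16 negative (-0.03, with 10 of 16 negative, when libraries were weighted by their fit). Over all tested genes the median was -0.01, the middle 50% ran from -0.15 to 0.13, and 52.8% were negative. The 95% intervals of the 22 mitotic members all lay between -0.85 (the lower end for Ccnb2) and 0.93 (the upper end for Cdc20), and among the replication members those of Mcm3 and Ccne2 reached below -1.

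In 1 of 38 members, Gins2, all 3 values of one group lay above all 3 of the other, where 6.59% of all tested genes did so in either direction and 2.08% with Yoda1 higher. Leaving out CST mouse 1, 2 or 3 gave counts of 15, 4 and 3, and leaving out Yoda1 mouse 1, 2 or 3 gave 3, 4 and 2, beside 19.3%, 12.8%, 10.2%, 10.1%, 13.6% and 28.1% of all tested genes in the same settings. Adjusted p stayed above 0.05 for every member in each of them.

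**Figure D2:**
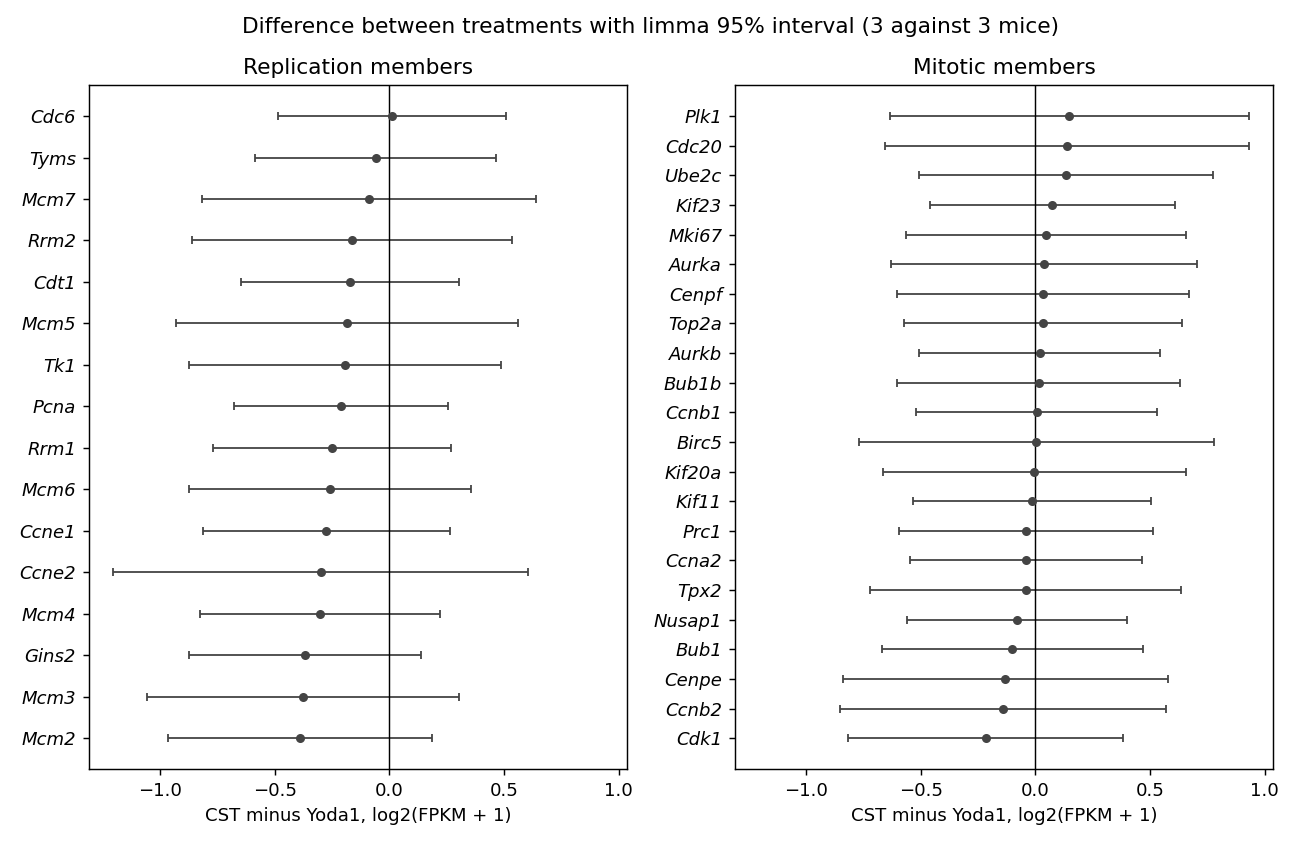
Difference between treatments for each member, as CST less Yoda1 in log2(FPKM + 1) on the horizontal axis, with points for the limma estimate and bars for its 95% interval over 3 against 3 mice. Every interval crosses 0; 15 of 16 replication estimates lie left of it, and the mitotic estimates run from -0.22 (Cdk1) to 0.15 (Plk1).

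Among the replication genes, the 6 subunits of the Mcm helicase ring all had negative estimates, from -0.39 (Mcm2, SE 0.25) to -0.09 (Mcm7, SE 0.31), and none passed the test. Mcm2 measured 21.2, 33.9 and 35.1 FPKM in the CST mice and 33.7, 40.5 and 42.7 in the Yoda1 mice. Mcm3 measured 15.1, 29.6 and 31.1 with CST and 31.4, 34.3 and 29.2 with Yoda1. In both genes CST mouse 1 was lowest by a wide step and the other 5 libraries overlapped.

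Mcm5 measured 14.8, 29.9 and 33.4 FPKM with CST and 24.5, 26.8 and 33.9 with Yoda1 (log2 change -0.18, SE 0.32). Mcm6 measured 15.98, 27.6 and 30.1 with CST and 27.7, 30.7 and 27.5 with Yoda1 (-0.26, SE 0.27). Mcm7, whose promoter is printed above, measured 35.4, 66.3 and 80.0 with CST and 59.8, 70.0 and 54.0 with Yoda1. In these 3 as well the groups overlapped and CST mouse 1 was lowest, at 0.468, 0.554 and 0.484 of the mean of CST mice 2 and 3.

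Mcm4 measured 24.9, 32.1 and 29.1 FPKM with CST and 32.4, 30.4 and 45.1 with Yoda1. Yoda1 mouse 3 was highest for Mcm4, as for Mcm2 and Mcm5. The subunits enter the ring in equal numbers, yet the ratio of Mcm7 to Mcm4 transcript was 1.42, 2.07 and 2.75 in CST mice and 1.84, 2.30 and 1.199 in Yoda1 mice. The 2 lowest ratios belong to the 2 libraries with the highest mitochondrial share; whether that share has a part in it was not tested.

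Gins2, a subunit of the GINS complex that completes the active helicase, measured 3.98, 5.22 and 5.04 FPKM with CST (4.75 ± 0.671, SD, n = 3) and 6.07, 5.70 and 7.47 with Yoda1 (6.41 ± 0.937), an estimate of -0.37 (SE 0.22, interval -0.87 to 0.14). It was the only member whose groups did not overlap. Gins2 (chromosome 8, 120578633 to 120589304 on GRCm38) shares 2758 exon bases with Gse1 on the other strand, and the strandedness of the libraries is not given. Gse1 measured 15.3, 20.5 and 23.5 with CST and 16.1, 15.1 and 21.6 with Yoda1. Reads of Gins2 and Gse1 over the shared stretch cannot be told apart without strand.

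The licensing factors and the clamp had overlapping groups. Cdc6, the loader of the helicase and the lowest of the 38 members, measured 1.74, 2.54 and 2.28 FPKM with CST and 2.00, 2.02 and 2.43 with Yoda1 (log2 change 0.01, SE 0.21). Cdt1 measured 12.2, 16.6 and 15.8 with CST and 15.9, 16.6 and 17.6 with Yoda1 (-0.17, SE 0.20). Pcna, the clamp and the highest of all members, measured 118, 144 and 156 with CST (139 ± 19.5, SD, n = 3) and 163, 149 and 169 with Yoda1 (160 ± 10.02), an estimate of -0.21 (SE 0.20). CST mouse 1 was lowest in these 3 genes and the groups overlapped.

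Of the nucleotide supply genes, those of the 2 ribonucleotide reductase subunits were highest in Yoda1 mouse 3. Rrm2, the subunit that is made in S phase, measured 44.9, 57.4 and 41.3 FPKM with CST and 50.1, 37.4 and 80.1 with Yoda1, and Rrm1 35.3, 46.2 and 47.0 with CST and 45.9, 45.5 and 62.5 with Yoda1. The ratio of Rrm2 to Rrm1 was 1.27, 1.24 and 0.879 with CST and 1.09, 0.822 and 1.28 in Yoda1 mice, so it varied as much within a group as between groups. Tk1, thymidine kinase, went the other way in Yoda1 mouse 3, with 19.4, 33.6 and 36.2 with CST and 35.6, 39.5 and 25.6 with Yoda1. Tyms, thymidylate synthase, measured 17.4, 22.2 and 28.4 with CST and 21.9, 24.3 and 23.6 with Yoda1 (log2 change -0.06, SE 0.23).

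Both cyclin E genes, which encode partners of the kinase that starts S phase, had overlapping groups. Ccne2 measured 10.9, 8.002 and 6.38 FPKM with CST and 8.63, 6.48 and 19.4 with Yoda1, a 3.04-fold range over the 6 libraries, the widest of the 38. Ccne1 measured 11.8, 13.6 and 11.8 with CST and 12.8, 13.6 and 19.98 with Yoda1. Yoda1 mouse 3 was highest in both, and Ccne2 was the one member higher in CST mouse 1 than in CST mice 2 and 3 (1.51 times their mean). Ccne2 shares 609 exon bases with Ints8 on the other strand, and the 6 libraries stood in the same order for Ints8, at 16.6, 12.7 and 9.90 with CST and 12.8, 10.48 and 20.2 with Yoda1. Without strand, reads of Ccne2 and Ints8 over that stretch cannot be told apart.

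**Figure D3:**
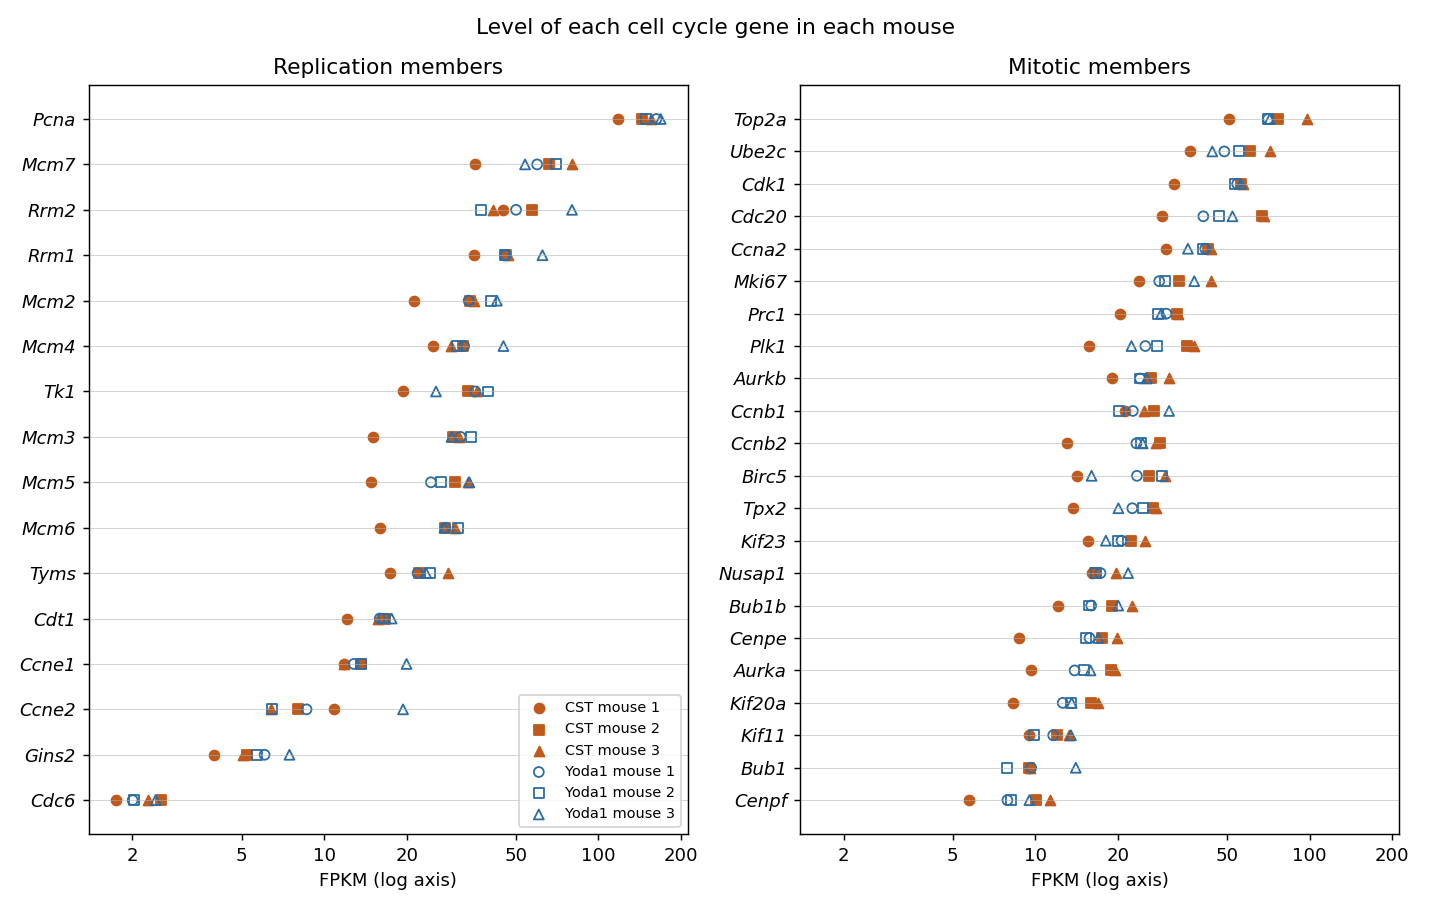
FPKM of each member in each mouse on a log axis, replication members left and mitotic members right, ordered by mean; filled symbols are CST and open symbols Yoda1 mice. The CST mouse 1 circle is the leftmost symbol in 34 of 38 rows, and the Yoda1 mouse 3 triangle is the rightmost in 10 of 16 replication rows and 4 of 22 mitotic rows.

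Among the mitotic genes, the spread was mostly wider among the CST mice than among the Yoda1 mice. The SD over the mean had a median of 10.3% in Yoda1 and 30.5% in CST skin over the 22 genes. Top2a, the topoisomerase that untangles sister chromatids, measured 50.7, 76.8 and 97.9 FPKM with CST (75.1 ± 23.6, SD, n = 3) and 70.6, 70.7 and 71.6 with Yoda1 (71.0 ± 0.567). Mki67, the protein that coats mitotic chromosomes and marks cycling cells, measured 23.9, 33.5 and 43.8 with CST and 28.3, 29.7 and 37.99 with Yoda1. The Yoda1 values of both genes lay inside the CST range.

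The kinase that drives mitotic entry, Cdk1, measured 32.1, 56.0 and 57.1 FPKM with CST and 54.5, 53.3 and 56.2 with Yoda1 (log2 change -0.22, SE 0.26), so 5 of the 6 mice lay within a few FPKM. Its partners Ccna2 (-0.04, SE 0.22) and Ccnb2 (-0.14, SE 0.31) were also lowest in CST mouse 1, where Ccnb2 measured 13.1 against 23.4 to 28.4 in the other 5 mice. Ccnb1, the other B cyclin, was flatter, at 21.3, 27.0 and 24.8 with CST and 22.7, 20.2 and 30.8 with Yoda1. The ratio of Ccnb1 to Ccnb2 was 1.63 for CST mouse 1 and 1.25 for Yoda1 mouse 3, and 0.828 to 0.971 for the others.

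Plk1, the polo kinase of spindle assembly, had the largest positive estimate (0.15, SE 0.34), with 15.8, 35.7 and 37.97 FPKM with CST and 25.2, 27.7 and 22.4 with Yoda1. Cdc20, the activator of the anaphase-promoting complex, measured 29.0, 67.3 and 68.3 with CST and 41.0, 46.7 and 52.4 with Yoda1 (0.14, SE 0.34). In both genes CST mice 2 and 3 were above and CST mouse 1 below every Yoda1 mouse. Aurka, the spindle pole kinase, had the same order (9.65, 18.8 and 19.6 with CST; 13.9, 15.0 and 15.9 with Yoda1), as did Kif20a, a motor of the late spindle, with 8.31, 16 and 16.9 with CST and 12.6, 13.5 and 13.6 with Yoda1. Kif20a shares 1271 exon bases with Cdc23 on the other strand, which had a higher mean (18.6 FPKM over 6 libraries). Smaller such overlaps were found for Prc1 with Rccd1 (911 bases), Ccna2 with Exosc9 (510) and Mcm7 with Ap4m1 (321) and Cops6 (64). Others were Nusap1 with Oip5 (172), Plk1 with Gm44985 (156), Tk1 with Afmid (83) and Cdc20 with Elovl1 (53). The same limit holds for all of them. Elovl1 had a mean of 272 FPKM and, like Cdc20, was lowest in CST mouse 1 (223) and highest in CST mouse 3 (365). Ube2c, the ubiquitin-conjugating enzyme of the same complex as Cdc20, measured 36.5, 60.4 and 71.7 with CST and 48.9, 55.2 and 44.2 with Yoda1 (0.13, SE 0.28). It shares 592 exon bases with the muscle gene Tnnc2 on the other strand, which measured 1508, 1213 and 2606 with CST and 17.0, 1059 and 61.4 with Yoda1. Both genes were highest in CST mouse 3, and without strand their reads over the shared stretch cannot be told apart.

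CST mouse 1 was also lowest in the kinetochore and passenger genes. Cenpe, a kinetochore motor, measured 8.71, 17.4 and 19.9 FPKM with CST and 15.8, 15.3 and 17.0 with Yoda1 (log2 change -0.13, SE 0.31). Birc5, survivin of the chromosomal passenger complex, measured 14.1, 26.0 and 29.8 with CST and 23.5, 29.0 and 16.04 with Yoda1, the only mitotic member with a drop of this size in Yoda1 mouse 3 (0.611 of the mean of Yoda1 mice 1 and 2). Its partner kinase Aurkb (0.02, SE 0.23), the spindle genes Tpx2 (-0.04, SE 0.29), Prc1 (-0.04, SE 0.24), Kif11 (-0.01, SE 0.22), Kif23 (0.07, SE 0.23) and Nusap1 (-0.08, SE 0.21), the kinetochore gene Cenpf (0.03, SE 0.27) and the checkpoint gene Bub1b (0.01, SE 0.27) all had estimates near 0. Bub1, the checkpoint kinase, was the flattest within CST, at 9.45, 9.45 and 9.55, with 9.66, 7.88 and 14.1 with Yoda1. The ratio of Cdc20 to Bub1 was 3.07 in CST mouse 1 against 7.13 and 7.15 in CST mice 2 and 3, and 4.25, 5.92 and 3.73 in Yoda1 mice.

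The members shared a low value in 1 mouse. CST mouse 1 had the lowest of the 6 values in 34 of 38 members (14 of 16 replication and 20 of 22 mitotic), where it was lowest in 24.5% of all tested genes. Relative to the mean of CST mice 2 and 3, its values had a median of 0.574 over the mitotic members and 0.737 over the replication members, where the median over all tested genes was 0.889. The exceptions to its lowest place were Ccne2, Rrm2, Bub1 and Ccnb1. CST mouse 1 was singled out after its values were seen.

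The upper end differed between the replication and the mitotic members. CST mouse 3 had the highest value in 17 of 22 mitotic and 2 of 16 replication members, where it was highest in 15.7% of all tested genes. Yoda1 mouse 3 had the highest in 10 of 16 replication and 4 of 22 mitotic members, where it was highest in 21.1% of all tested genes. The score of a set, its mean log2(FPKM + 1), was 4.21, 4.68 and 4.68 with CST and 4.66, 4.67 and 4.91 in Yoda1 mice for replication. For mitosis it was 4.12, 4.78 and 4.90 with CST (4.60 ± 0.42, SD, n = 3) and 4.57, 4.59 and 4.66 in Yoda1 mice (4.61 ± 0.05). The mitotic score minus the replication score was -0.09, 0.10 and 0.23 with CST and -0.08, -0.08 and -0.25 in Yoda1 mice, and the value of CST mouse 1 lay inside the Yoda1 range.

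Without CST mouse 1 the mitotic median was 0.26, with 20 of 22 members positive where 55.4% of all tested genes were, and in 14 mitotic members both CST values lay above all 3 Yoda1 values where 14% of all tested genes had CST higher in this way. The replication median was then -0.08. Without CST mouse 3, by contrast, all 38 estimates were negative, with medians of -0.15 for mitosis and -0.32 for replication. The median over all tested genes was then -0.01, and their share of negative estimates was not worked out. Without CST mouse 1 and Yoda1 mouse 3 together, both CST values lay above both Yoda1 values in 22 members, 19 of them mitotic, where 24.3% of all tested genes did. In none of these 3 settings did a member pass the test (smallest limma adjusted p among mitotic members 0.9992 without CST mouse 1 and 0.332 without both libraries), and with 2 CST mice the spread rests on few libraries.

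**Figure D4:**
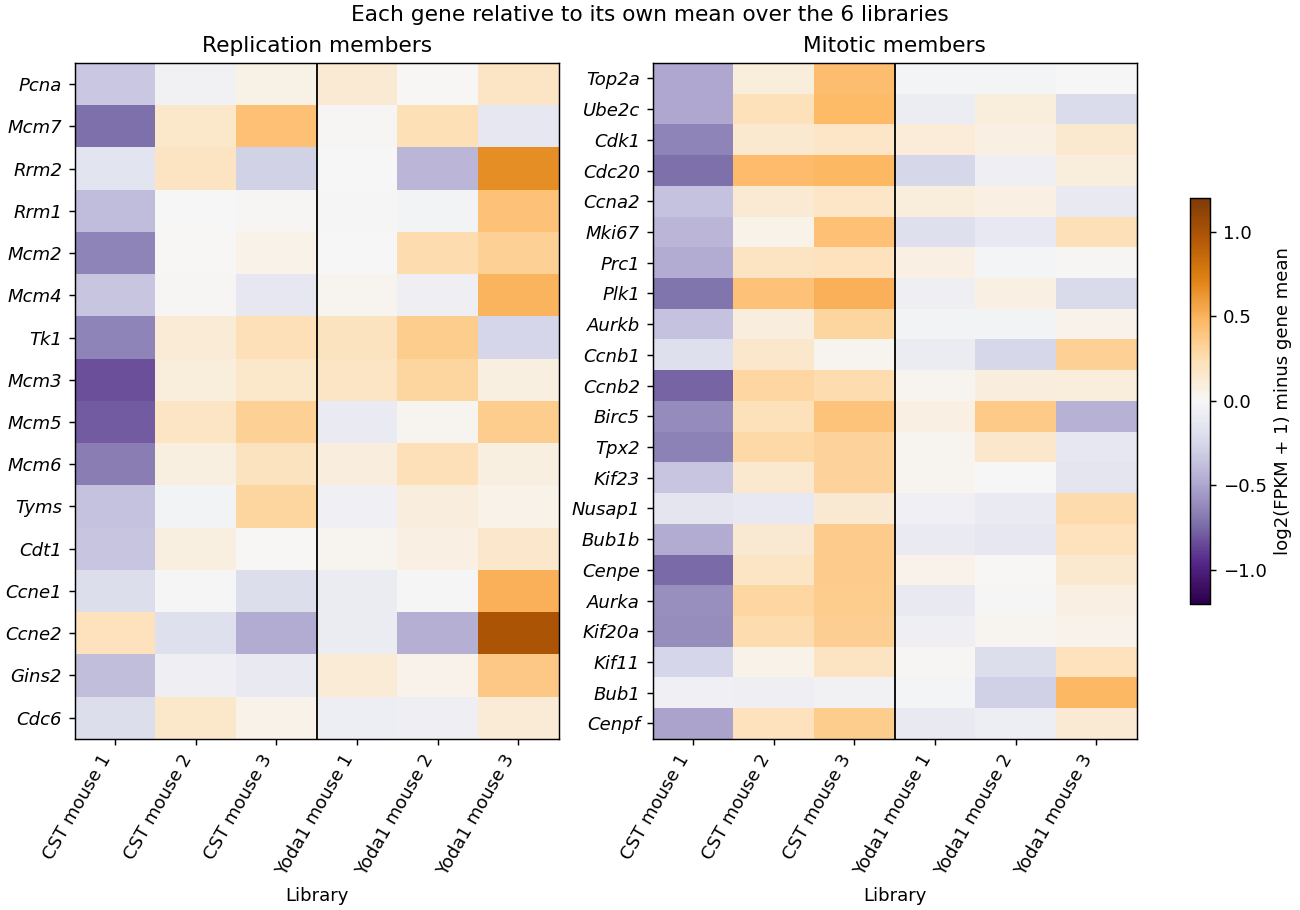
Each member's log2(FPKM + 1) minus its own mean over the 6 libraries, as colour from purple (below the mean) to orange (above), with libraries in columns and a line between CST and Yoda1 mice. The CST mouse 1 column is purple in nearly every row (lowest in 34 of 38), CST mouse 3 is the most orange in 17 of 22 mitotic rows, and Yoda1 mouse 3 in 10 of 16 replication rows.

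Markers of other cells also differed between these mice. The 10 hair follicle markers summed to 13.5, 138 and 481 FPKM with CST and 22.3, 27.6 and 9.54 in Yoda1 mice. It is in the matrix, not the shaft or the inner root sheath, that follicle cells divide during growth. In CST mouse 3 the inner root sheath keratins Krt71 (167.5) and Krt25 (148.1) were the highest of the 10. Krt35 (57.4), Dlx3 (54.1), Msx2 (17.2) and Hoxc13 (14.9) followed. Krt71 (56.05) and Krt25 (46.98) were also the highest in CST mouse 2. CST mice 2 and 3, with the highest mitotic scores, also had the highest hair sums, and CST mouse 1 had the second lowest. Krt33a was at 0 in CST mouse 1, and 5 of the 10 (Shh, Krt31, Krt33a, Krt35 and Krt25) were at 0 in Yoda1 mouse 3, whose mitotic score was nevertheless the highest of the Yoda1 mice. The part of hair follicle cells in the mitotic values was not tested.

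The 7 neutrophil markers, of cells that no longer divide, summed to 11090, 1811 and 1737 FPKM with CST and 1601, 698 and 4109 in Yoda1 mice. CST mouse 1 was thus highest where its cell cycle values were lowest, and this held for each marker. Most of its sum came from S100a8 (3066 against 473.5 in CST mouse 2) and S100a9 (7553 against 1170). Which cells of the skin made these transcripts was not tested. The gap to CST mouse 2 was also wide for Retnlg (318.5 against 52.8). It was smaller for Csf3r (36.2 against 34.7), Cxcr2 (30.7 against 22.95) and Mmp9 (79.2 against 55.5). The neutrophil precursor markers, of marrow cells that do divide, summed to 3.70 to 5.94 FPKM over 7 genes, with Elane at 0 in CST mice 2 and 3 and Yoda1 mouse 3. The T cell markers summed to 44.5 to 67.5 FPKM with CST and 59.9 to 70.1 in Yoda1 mice, and the 6 B cell and plasma cell markers to under 2 FPKM in every library (0.879 to 1.90). Basal keratinocyte markers scored 8.71, 8.64 and 8.37 with CST and 8.18, 8.10 and 8.80 with Yoda1, so it was not low in CST mouse 1. The part of neutrophil RNA in the low values of CST mouse 1 was not tested.

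**Figure D5:**
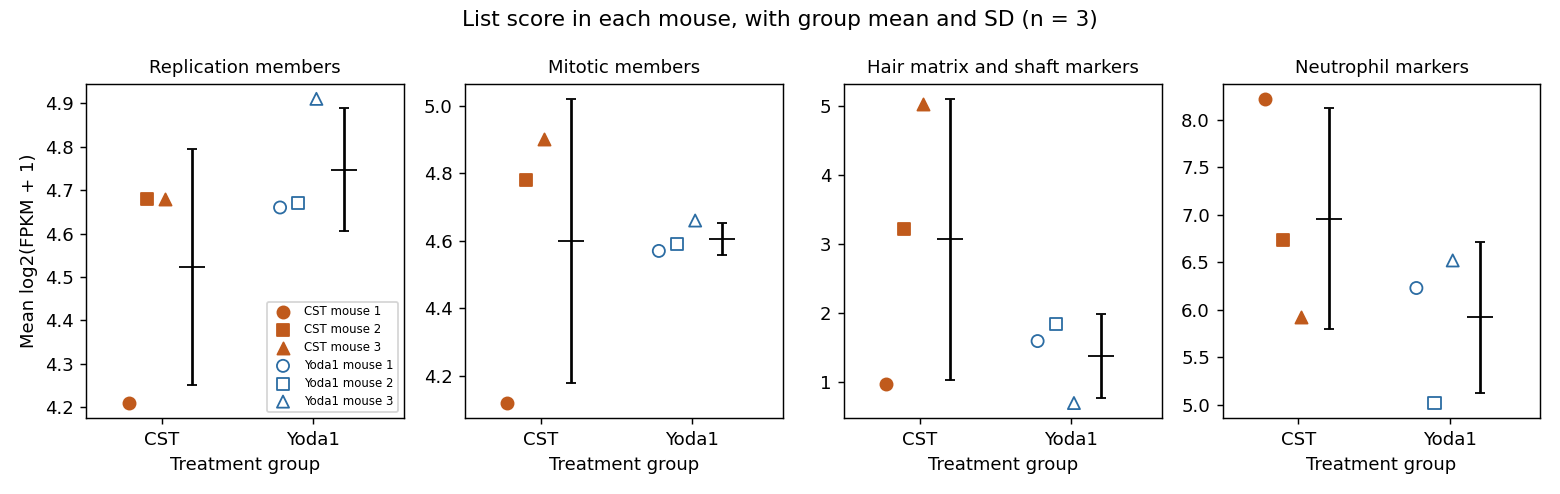
Mean log2(FPKM + 1) of each list in each mouse, with group mean and SD (n = 3). The lists are replication members, mitotic members, hair follicle markers (titled hair matrix and shaft) and neutrophil markers. Each panel has its own vertical range, which does not start at 0. CST mouse 1 is lowest for replication (4.21) and mitosis (4.12) and highest for neutrophil markers (8.22), and CST mouse 3 is highest for mitosis (4.90) and hair markers (5.03).

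In each of 5 further cell cycle lists 0 genes passed the test. Of the 40 other replication fork genes 32 had negative estimates (median -0.13), and CST mouse 1 was lowest in 35. Among those with the smallest p were Rfc1, the large subunit of the clamp loader (log2 change -0.26, SE 0.19, all Yoda1 values above all CST values), the polymerase delta subunit Pold3 (-0.24) and the clamp loader subunit Rfc4 (-0.25). Of the 14 other licensing genes 13 were negative (median -0.16), and CST mouse 1 was lowest in 6. The smallest p was that of Orc6 of the origin recognition complex, at 36.8, 34.2 and 34.4 FPKM with CST and 41.6, 40.7 and 57.8 with Yoda1 (-0.38, SE 0.21). Orc3 (-0.25), Orc2 (-0.19) and the kinase gene Cdc7 (-0.18) came next.

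Of the 78 other mitotic genes 22 had positive and 56 negative estimates (median -0.06), and CST mouse 1 was lowest in 50. Ckap2l, a spindle protein, stood out with 18.1, 13.8 and 15.0 FPKM with CST (15.6 ± 2.24, SD, n = 3) and 10.2, 9.82 and 9.84 with Yoda1 (9.97 ± 0.241), an estimate of 0.59 (SE 0.20, limma adjusted p = 0.797), and unlike any of the 38 it was highest in CST mouse 1. Cenpk of the kinetochore went the other way, at 7.28, 6.34 and 6.69 with CST and 7.46, 8.58 and 13.8 with Yoda1 (-0.45, SE 0.26). The condensin subunits Smc2 (-0.29) and Smc4 (-0.21) had the next smallest p.

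Of the 24 cyclins, kinases and E2F factors of G1 and the checkpoints, 7 had positive and 17 negative estimates, and CST mouse 1 was lowest in 10. E2f1 measured 4.41, 6.80 and 6.45 FPKM with CST and 9.95, 10.7 and 5.61 with Yoda1 (log2 change -0.47, SE 0.29), and E2f2 6.02, 9.17 and 12.9 with CST and 5.23, 7.78 and 5.71 with Yoda1 (0.48, SE 0.30), both activators of S phase genes. Wee1, the kinase that holds Cdk1 inactive, measured 5.94, 4.66 and 4.39 with CST and 4.32, 3.18 and 3.47 with Yoda1 (0.36, SE 0.22), with no overlap. Chek1, the replication checkpoint kinase, had a change of -0.34.

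Of the 14 cell cycle brakes 7 had positive and 7 negative estimates, and CST mouse 1 was lowest in 5. Btg2, an antiproliferative gene induced by p53 and by growth signals, had the smallest p of the cell cycle lists, at 39.6, 35.7 and 42.4 FPKM with CST (39.2 ± 3.34, SD, n = 3) and 25.4, 23.4 and 25.9 with Yoda1 (24.9 ± 1.29), an estimate of 0.63 (SE 0.18, limma adjusted p = 0.622). All CST values lay above all Yoda1 values. Its relative Btg1 measured 110, 117 and 90.1 with CST and 94.5, 73.7 and 75.9 with Yoda1 (0.37, SE 0.21). Cdkn1a, the p21 inhibitor, measured 355, 347 and 296 with CST and 205, 269 and 320 with Yoda1 (0.35, SE 0.24), with the groups overlapping through Yoda1 mouse 3. Cdkn1c, the p57 inhibitor, varied most, at 10.6, 46.7 and 6.98 with CST and 31.4, 86.8 and 14.2 with Yoda1 (-1.10, SE 0.79).

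The order of levels between genes needs a caution about length. The length behind a gene's FPKM was within 1 base of the mean length of its annotated GENCODE M21 transcripts in 37 of 38 members, and in 93.5% of the 12124 tested genes that have several transcripts. Short annotated fragments therefore raise a gene's FPKM without touching comparisons between mice. Top2a was scaled by 1696 bases, although its longest annotated transcript has 5221, and Cdk1 by 1223 against 4375. On the deposited scale Pcna (mean 149.7 FPKM over 6 libraries), Top2a (73.0), Mcm7 (60.9), Ube2c (52.8) and Rrm2 (51.9) were the highest members. Scaled to the longest transcript instead, Pcna (88.8) was still first and Ube2c (38.1), Cdc20 (29.2), Rrm2 (26.9) and Top2a (23.7) followed, while Cdk1 passed from place 6 to place 16. Top2a to Rrm2 on the deposited scale overlapped in their ranges over the 6 mice, although within each of the 6 libraries Top2a was above Mcm7 and above Ube2c.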

How the data were processed

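RNA was sequenced from skin of 6 mice, and the authors deposited 1 table of FPKM values per gene and library, with no counts. GRCm38 and mm10 are the builds listed, per the submitters' processing notes; aligner, counting tool and strandedness: not given in the sources used here. Deposited starts equalled those of GENCODE M21 on GRCm38 in 2.81% of 52029 shared identifiers, so positions are those of GENCODE M21. Groups and mouse numbers come from the titles. The titles number the samples as separate mice.

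Depth was recovered from short genes counted over their whole span, where the commonest step was taken as 1 read. Every gene above 0 (30697) then gave whole reads within 0.001 reads, and 0 of 1554 did with wrong depths. Wrong depths were tried only on genes above 0 in most libraries, and over a shorter range of lengths. A gene above 0 in 1 library can give whole reads at almost any depth, so these counts are not like for like. Groups were compared with limma 3.58.1 under R 4.3.3 (eBayes with trend, two-sided, Benjamini-Hochberg) on log2(FPKM + 1) over 14588 genes whose mean reached 1 FPKM; this scale understates changes of low genes. The script was tested on simulated data. The exact permutation test of 3 against 3 cannot give a p below 0.1, so scores carry none. The cell cycle genes, lists and tests were chosen with earlier results of these data known. Genes named outside the 38 are up to 4 of each list with the smallest p; 1 of these is not reported here. In all, 17 alternatives were run.

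Same-numbered mice of the 2 groups were not treated as pairs: the correlation of their deviations from the group means across genes was -0.08, 0.21 and -0.20.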

Additional observations from a re-analysis of the deposited data

How the results depend on the processing

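All 38 members kept an adjusted p above 0.05 in each of the 17 alternatives. Of 646 member values, 633 moved by less than 1 SD between replicates and 13 by more, and 79 changed sign without being called. The number of genes called over the whole table was 1348 with library weights. The weights were 0.305, 2.47 and 0.822 for CST mice 1, 2 and 3. They were 12.8, 0.657 and 0.193 for Yoda1 mice 1, 2 and 3, so Yoda1 mouse 1 largely set the Yoda1 mean there. With 1 library left out 0 to 136 genes were called (136 without Yoda1 mouse 2, 8 without CST mouse 2). The cause of these counts was not tested. The replication median ran from -0.32 to -0.08 and the mitotic median from -0.15 to 0.26 with 1 library left out. The count of members whose groups do not overlap was 2 with quantile normalization or median-of-ratios scaling and 2 to 15 with 1 library left out, and 24 without CST mouse 1 and Yoda1 mouse 3, where fewer libraries make separation easier (45.3% of all tested genes). With the mouse number as a replicate block 0 genes were called, the medians were -0.23 and 0.00, and no call changed; the mice share only a number. The replication median was -0.03, with 10 of 16 negative, both with weights and without CST mouse 1 and Yoda1 mouse 3. With weights the mitotic median was 0.16 (smallest adjusted p of a member 0.0625), and Ckap2l (0.45), E2f1 (-0.54), E2f2 (0.74), Btg2 (0.55) and Cdkn1a (0.68) passed in limma and no member did.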
